A study of Danio rerio with 12 samples.

Results

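The 7 genes followed here mark the somatic cells of the fish ovary and testis, and were measured in gill RNA of adult zebrafish. They are cyp19a1a, foxl2a, amh, gsdf, fshr, lhcgr and star, 7 of 13443 genes that could be named on the array. They were picked by name, through the RefSeq accession that the scanner files give for each probe, and kept where a probe was well above background in a group. Since detection and the levels themselves were part of that choice, the levels are given as a description. The gills of 10 fish were pooled for each sample, and each sample was hybridised to a one-colour Agilent array, with 3 pools in each of 4 groups. The control fish were untreated. The other groups were held for 96 h in water with metal oxide nanoparticles, NiO at 17.5 mg/L, CuO at 0.2 mg/L or ZnO at 4.8 mg/L, doses that the submitters set at a fixed fraction of each median lethal concentration. Exposed fish were not fed, and the labels give neither the sex of the fish nor a strain.

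In a growing follicle the oocyte is wrapped by granulosa cells and, outside them, theca cells. Theca cells take up cholesterol and turn it into androgen, and granulosa cells turn that androgen into estrogen with the aromatase cyp19a1a. The pituitary drives both layers with follicle-stimulating hormone and luteinizing hormone, which are read by fshr and lhcgr. The transcription factor foxl2a supports the female program and aromatase, while amh and gsdf are TGF-beta family signals made by granulosa and by Sertoli cells, the supporting cells of the testis. The protein star carries cholesterol into the mitochondrion, the first step of all steroid synthesis, and it serves the interrenal (the fish adrenal) as well as the gonad.

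All values are log2 levels, the processed signal of a probe on a log2 scale set against the 75th percentile of the whole array, so that 1 unit is a doubling and 0 is a bright probe. Heights differ between probes for reasons of binding, so each gene is compared only with itself. In pooled tissue, fewer cells of a type and less RNA per cell cannot be told apart. On every array 75.5% to 88.4% of the spots were well above background and none was saturated, and the Pearson correlation between arrays of 1 group ran from 0.820 to 0.967. Each slide carried 1 pool of every group, always in the same position, so the position on the slide and the group cannot be told apart. Groups are those of the scanner files attached to each sample. The deposited series table holds the same signals, but 10 of its 12 columns carry another sample's array, so that the first CuO and the first ZnO array stand under control 2 and control 3 there. By the table's labels limma called 0 genes with CuO, ZnO or NiO, and 254, 228 and 553 of 12616 had an unadjusted p under 0.05, so every difference from control below depends on the scanner files' assignment. Marker genes of other tissues differed widely between the pools. The median of 44 oocyte genes lay between 3.50 and 3.71 in the controls and at 2.28 in the first NiO pool, against -5.27 to -3.34 in the other 8 pools. The median of 31 eye genes was -4.58 or lower in the third control, the third CuO, the first ZnO and the second NiO pool, and above 0 in the rest. The median of 30 gill genes ran from -1.70 to 3.07, with at least 28 of the 30 well above background on every array, and it was lowest in the third control pool and the third CuO pool. In the gill list the ionocyte regulator foxi3b was not well above background in those same pools, at -9.49 and -8.40. The gill median was 0.22, 0.48 and -1.70 in the controls, and 1.27 to 3.07 in the exposed pools other than the third CuO pool. Of the 30 gill genes limma called 3, 7 and 7 higher with CuO, ZnO and NiO and 0 lower, beside 11.5%, 13.8% and 10.3% of all genes higher.

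**Figure D1:**
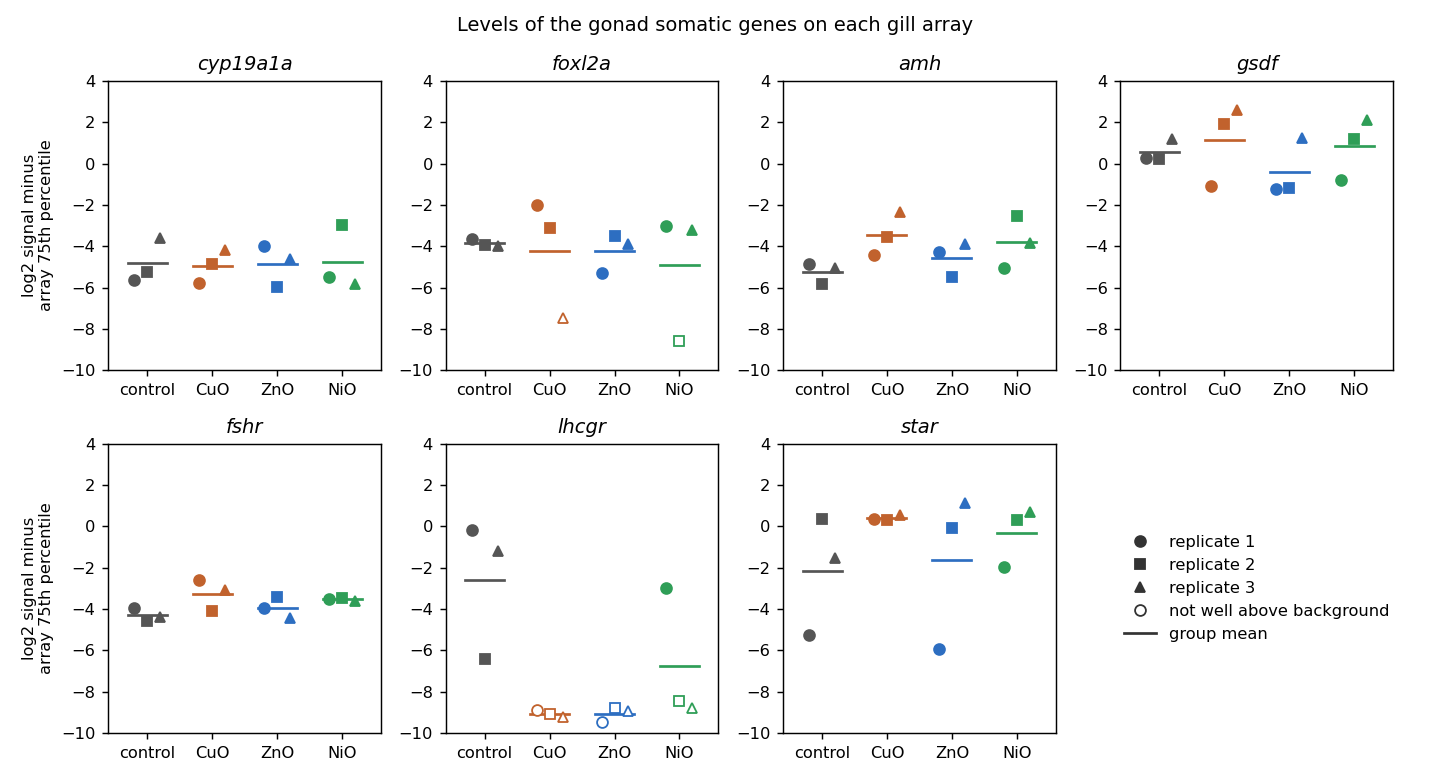
Levels of the 7 genes on each array, as log2 signal minus the array's 75th percentile (vertical axis), by group (horizontal axis), with 1 point a pool, its shape giving the replicate, open where the probe was not well above background, and a line at the group mean. The lhcgr points of the 3 controls and the first NiO pool stand above the other 8, and foxl2a has its lowest points in the third CuO pool (-7.46) and the second NiO pool (-8.59).

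Of the 7 members only lhcgr followed the oocyte signal. The level of lhcgr, the luteinizing hormone receptor of theca, Leydig and late granulosa cells, was -0.17, -6.40 and -1.21 in the controls. In the NiO pools it was -2.97, -8.47 and -8.77. The CuO pools gave -8.87, -9.08 and -9.23, and the ZnO pools gave -9.47, -8.78 and -8.95. The probe was well above background in the 3 controls and the first NiO pool and on none of the other 8 arrays, which are the same arrays that divide by the oocyte median. Within those 4 pools the order was not that of the oocyte genes: the second control, with an oocyte median of 3.66, had the lowest lhcgr level of the 4, and the first NiO pool lay above it.

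The control mean of lhcgr was -2.59 ± 3.34 (SD, n = 3), the NiO mean -6.74 ± 3.27, and the means of CuO and ZnO were -9.06 ± 0.18 and -9.07 ± 0.36, with no order between the last 2 since both were at background. In limma's fit the difference from control was -6.47 for CuO (SE 1.70, adjusted p = 0.0206) and -6.47 for ZnO (SE 1.70, adjusted p = 0.0211). Because lhcgr was not well above background in either group, its fold is given as a bound from the control mean. That bound was at least 21.8-fold lower with CuO and at least 21.5-fold lower with ZnO. It makes no allowance for the spread of the controls. The 95% intervals of the fitted differences ran from -10.25 to -2.68 (CuO) and from -10.26 to -2.69 (ZnO). For NiO the difference was -4.15 (95% interval -7.93 to -0.36, adjusted p = 0.107), and the NiO and control ranges overlapped. The probe entered the fit only through the control group, where it is high, so the difference describes the choice and supports nothing further. Of all 12616 genes tested, 25.1% were called with CuO, 25.8% with ZnO and 22.3% with NiO at an adjusted p under 0.05 (higher in 11.5%, 13.8% and 10.3%, lower in 13.6%, 11.9% and 12%). Of the members, lhcgr was the single member called with CuO and with ZnO, and no member was called with NiO. Within the slides the differences of lhcgr from the control were -8.70, -2.68 and -8.03 for CuO, -9.30, -2.37 and -7.74 for ZnO, and -2.80, -2.07 and -7.57 for NiO.

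Which pools were used decided these calls. The CuO call was lost without the first control (-5.26, adjusted p = 0.0735), the third control (-5.77, adjusted p = 0.0769), the first CuO pool (-6.56, adjusted p = 0.0581) or the second CuO pool (-6.46, adjusted p = 0.0558). The ZnO call was lost without the first control (-5.26, adjusted p = 0.0773), the third control (-5.78, adjusted p = 0.0814), the first ZnO pool (-6.27, adjusted p = 0.0504) or the second ZnO pool (-6.62, adjusted p = 0.0566). Without the second control the difference grew to -8.37 for CuO and -8.38 for ZnO. With normexp background correction, with an offset of 50, it was -2.96 for CuO (adjusted p = 0.0357) and -2.95 for ZnO (adjusted p = 0.0365). With NiO the difference passed the test once the first NiO pool was left out (-6.03, adjusted p = 0.0207) or the second control was (-6.05, adjusted p = 0.0243).

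The second lhcgr probe did not show the pattern. It was at -9.33, -9.13 and -9.48 in the controls and at -8.95, -9.49 and -9.22 with CuO, on all 6 not well above background. It was well above background in the first ZnO pool (-7.0) and the first NiO pool (-5.59) alone, and stayed outside the fit because no group had it on all 3 arrays. The high control level of lhcgr therefore rests on 1 probe of 2, and the pair agreed on a signal only in the first NiO pool.

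**Figure D2:**
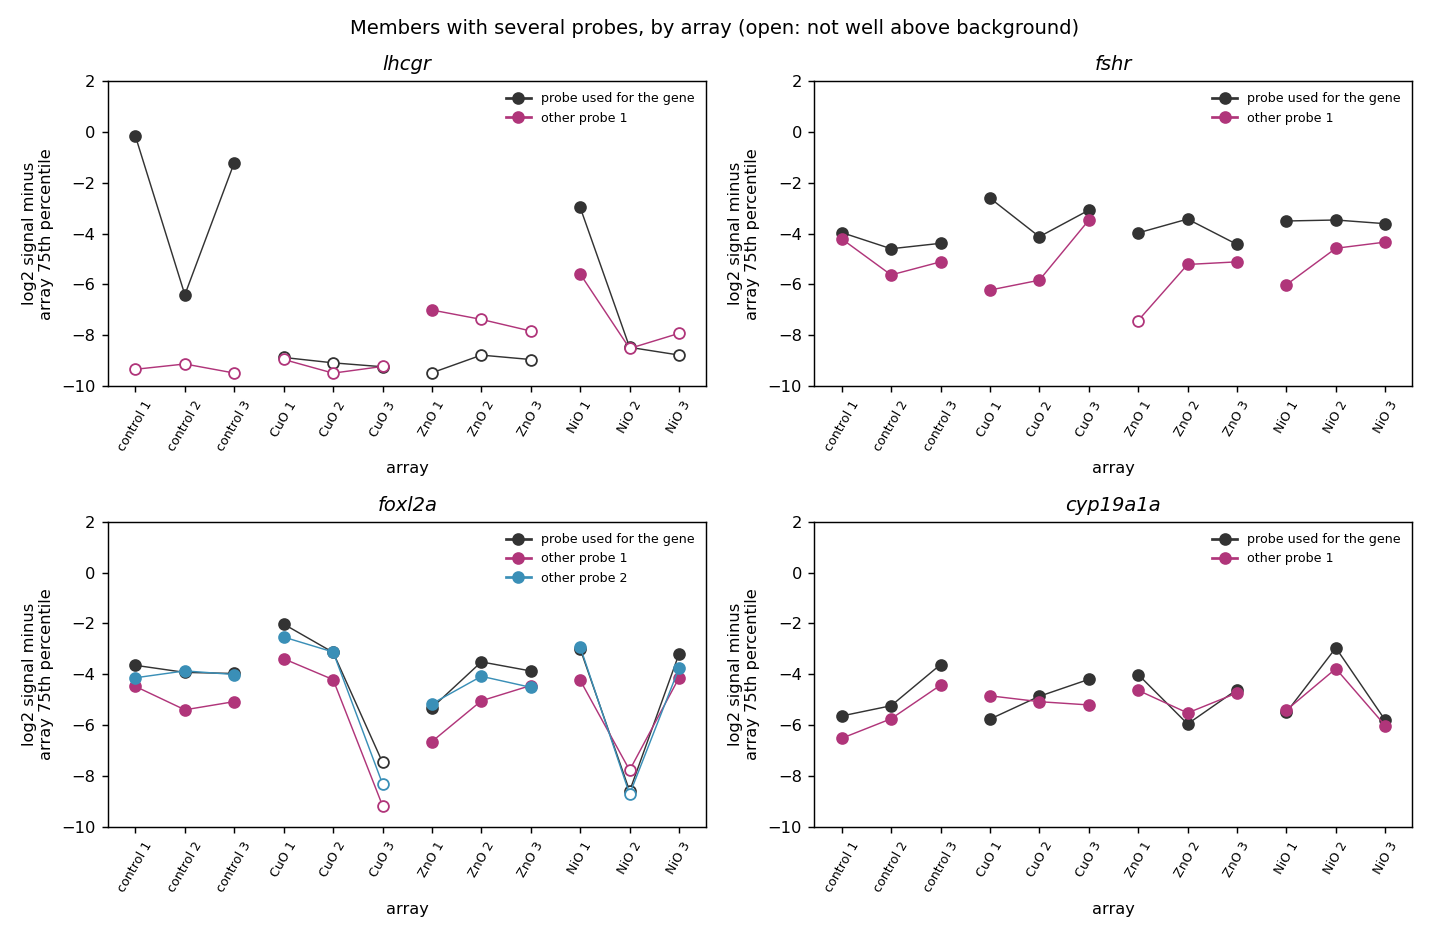
Every probe of the 4 members with more than 1 probe, as log2 signal minus the array's 75th percentile (vertical axis) on each of the 12 arrays (horizontal axis), open where not well above background. Lines join the arrays of a group and carry no order. The 3 foxl2a probes drop together in the third CuO and the second NiO pool, while the 2 lhcgr probes part in the controls.

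The receptor fshr, which reads follicle-stimulating hormone on granulosa and Sertoli cells, varied little on the probe used for the gene. Its controls stood at -3.96, -4.59 and -4.38. With CuO it was at -2.60, -4.12 and -3.08, with ZnO at -3.97, -3.43 and -4.42, and with NiO at -3.50, -3.46 and -3.61. The NiO pools lay above every control, by a mean of 0.79 (95% interval -0.12 to 1.69, adjusted p = 0.190), and the CuO and ZnO ranges overlapped those of the controls. Group means fell in the order CuO, NiO, ZnO and control, from -3.27 to -4.31, and neighbours in that order differed by less than the SD of the CuO pools, 0.78. The CuO difference was 1.04 (95% interval 0.14 to 1.95, adjusted p = 0.0838), and it passed the test when the second CuO pool was left out (1.47, adjusted p = 0.0269). The other fshr probe gave -0.19 for CuO, -0.93 for ZnO and 0.01 for NiO, so the direction was not shared by the probes. That probe varied more, from -7.42 in the first ZnO pool, not well above background, to -3.47 in the third CuO pool. In the first NiO pool, with its high oocyte median, the probe used lay between the levels of the other NiO pools. The other probe was lower there, at -6.01 against -4.58 and -4.33.

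The cholesterol carrier star varied widely between pools of 1 group. The controls read -5.26, 0.34 and -1.54. The CuO pools were close together at 0.38, 0.31 and 0.54. ZnO gave -5.93, -0.10 and 1.14, and NiO gave -1.99, 0.33 and 0.68. The first control and the first ZnO pool were thus far below the others, and the controls overlapped every exposed group. In the fit star differed by 2.56 with CuO (95% interval -1.43 to 6.56, adjusted p = 0.302), 0.52 with ZnO (adjusted p = 0.853) and 1.83 with NiO (adjusted p = 0.495). Without the first control the ZnO difference turned to -1.03. The 2 pools low in star, both on the first slide, had unlike oocyte medians (3.50 and -5.27). The 11-beta-hydroxylase cyp11c1, which makes cortisol and 11-oxygenated androgens, was lowest on the same arrays, at -5.34 in the first control and -4.41 in the first ZnO pool.

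Aromatase itself, cyp19a1a, did not follow the oocyte median. It read -5.64, -5.24 and -3.62 in the controls and -5.76, -4.86 and -4.20 with CuO. The ZnO pools gave -4.01, -5.95 and -4.60, and the NiO pools -5.49, -2.96 and -5.81. All 12 were well above background, and the highest was the second NiO pool, whose oocyte median was -4.21. The group means lay between -4.94 and -4.75 with SDs of 0.78 to 1.56, so no order can be given. The differences from control were -0.11 for CuO (95% interval -1.99 to 1.77), -0.02 for ZnO (-1.90 to 1.86) and 0.08 for NiO (-1.80 to 1.96), with adjusted p-values of 0.928, 0.987 and 0.959. These intervals still allow changes of almost 2 units either way. The second cyp19a1a probe differed by 0.52, 0.60 and 0.50, also below the threshold in each comparison.

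**Figure D3:**
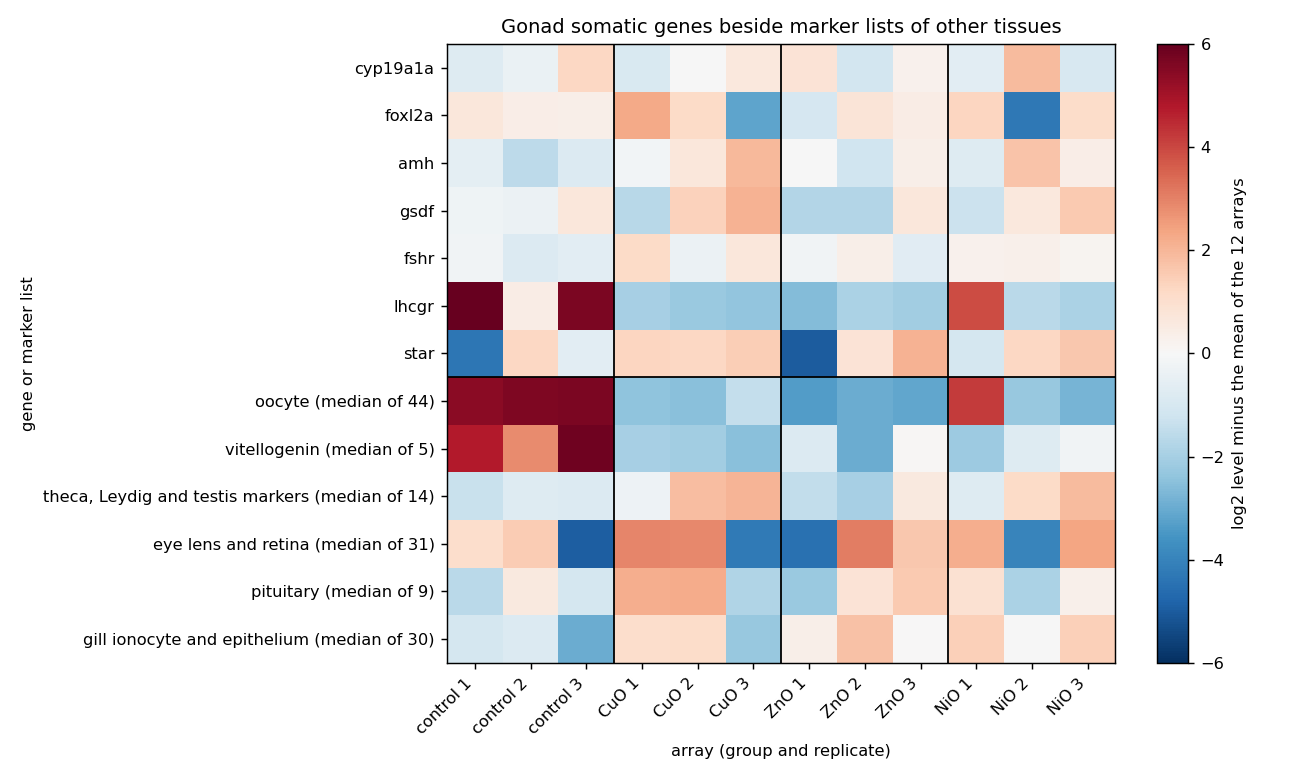
Each row is a member gene, or the median of a marker list with the number of its tested genes, and each column 1 of the 12 arrays, with colour for the log2 level minus that row's mean over the arrays (red higher, blue lower, limits at -6 and 6). The lhcgr row matches the oocyte row in the first and the third control and the first NiO pool. The higher pools of amh and gsdf are those of the testis row, apart from gsdf in the third control. The low foxl2a pools are low in the eye and pituitary rows, as are other pools.

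The forkhead factor foxl2a, needed for granulosa identity and also expressed in pituitary and in tissue around the eye, was flat in the controls at -3.65, -3.92 and -3.97. With CuO it was at -2.03, -3.14 and -7.46, with ZnO at -5.31, -3.51 and -3.87, and with NiO at -3.00, -8.59 and -3.2. Its lowest points, the third CuO and the second NiO pool, were the 2 arrays on which it was not well above background, and all 3 foxl2a probes missed background there. On those arrays the eye median was -4.83 and -4.58 and the pituitary median, over 9 hormone and regulator genes, -6.28 and -6.40. The pituitary genes gh1 (growth hormone) and prl (prolactin) were at -6.57 and -6.0 in the third CuO pool and at -6.25 and -8.43 in the second NiO pool. They were as low in the first control (-6.09 and -8.72), the third control (-6.75 and -6.49) and the first ZnO pool (-8.90 and -9.28). The pituitary median was -6.09, -5.52 and -6.71 in those 3 pools, where foxl2a was well above background at -3.65, -3.97 and -5.31. The third control and the first ZnO pool were also as low in the eye list, at -5.56 and -5.08. The oocyte median gave no separation, since foxl2a was at -3.00 in the first NiO pool and at -3.2 in the third. How far eye or pituitary RNA bears on foxl2a was not tested.

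The foxl2a differences from control were -0.36 for CuO (95% interval -3.91 to 3.18, adjusted p = 0.875), -0.39 for ZnO (adjusted p = 0.879) and -1.08 for NiO (95% interval -4.63 to 2.46, adjusted p = 0.659). Leaving out the third CuO pool turned the first to 1.26, leaving out the first ZnO pool turned the second to 0.16, and leaving out the second NiO pool turned the third to 0.75. The control mean of -3.85 ± 0.17 lay inside the range of every exposed group.

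The TGF-beta family hormone amh, which restrains follicle recruitment in the ovary and is made by Sertoli cells in the testis, was lowest in the controls, at -4.84, -5.82 and -5.07. With CuO it was at -4.41, -3.56 and -2.33, all above the controls. ZnO gave -4.28, -5.46 and -3.90, and NiO gave -5.04, -2.53 and -3.85, so those ranges overlapped with the controls. The group means ran from CuO (-3.43 ± 1.05) through NiO (-3.81 ± 1.25) and ZnO (-4.55 ± 0.82) to control (-5.24 ± 0.51), and each step was smaller than the larger SD beside it. The CuO difference of 1.81 (95% interval 0.22 to 3.39) had an adjusted p of 0.0871, that of NiO, 1.43, one of 0.175, and that of ZnO, 0.69, one of 0.499. In the CuO comparison 2 members, amh and lhcgr, had ranges apart from the controls, against 48.2% of all genes tested. In the ZnO comparison it was lhcgr alone against 42.8%, and in the NiO comparison fshr alone against 42.6%.

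The other TGF-beta family member, gsdf, a growth factor of Sertoli and granulosa cells linked to testis differentiation in fish, was well above background everywhere. The controls had 0.29, 0.21 and 1.22. CuO gave -1.10, 1.94 and 2.61, ZnO gave -1.24, -1.20 and 1.24, and NiO gave -0.77, 1.19 and 2.12. Every group overlapped the controls, and the differences of 0.58, -0.97 and 0.27 for CuO, ZnO and NiO had adjusted p-values of 0.703, 0.527 and 0.875. Without the third CuO pool the first of these was -0.15, and without the third NiO pool the last was -0.36.

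Both amh and gsdf had their highest levels in pools where the median of the testis marker list was high, although gsdf was also high in the third control, at 1.22. The median of 14 theca, Leydig and testis markers was -0.93 and -0.74 in the second and the third CuO pool, -1.62 and -0.88 in the second and the third NiO pool and -2.20 in the third ZnO pool. In the other 7 pools it lay between -4.79 and -3.08. Over the 12 arrays amh and gsdf correlated at r = 0.64, the only one of the 21 member pairs above 0.6, and cyp19a1a and foxl2a ran opposite at r = -0.78. These are descriptions over arrays that share group and slide. The Leydig cell hormone insl3, singled out after its values were seen, was at -6.22, -6.25 and -6.60 in the controls. It reached -1.29 and 0.31 in the second and the third CuO pool, 1.31 and -1.32 in the second and the third NiO pool and -3.00 in the third ZnO pool, against -6.15, -6.03, -8.15 and -6.42 in the remaining exposed pools. Its differences of 3.98 (CuO), 0.50 (ZnO) and 4.34 (NiO) had adjusted p-values of 0.171, 0.878 and 0.154, and the last passed the test without the first NiO pool (6.35, adjusted p = 0.0472). The meiotic chromosome protein sycp3 was likewise highest in the third CuO pool (-1.91) and in the second and the third NiO pool (-2.51 and -2.63). Other genes of the testis marker list went another way. The marker spata4 was highest in the controls (1.12, 0.77 and 1.41). The first and the third control were the highest pools of cimap1b (1.57 and 1.34), a sperm tail and cilium protein. In that list igf3 was called lower in all 3 comparisons, while tekt1 and spag6 were called higher with CuO and NiO. Which tissue or cell type gave the levels of amh, gsdf and these markers was not tested.

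**Figure D4:**
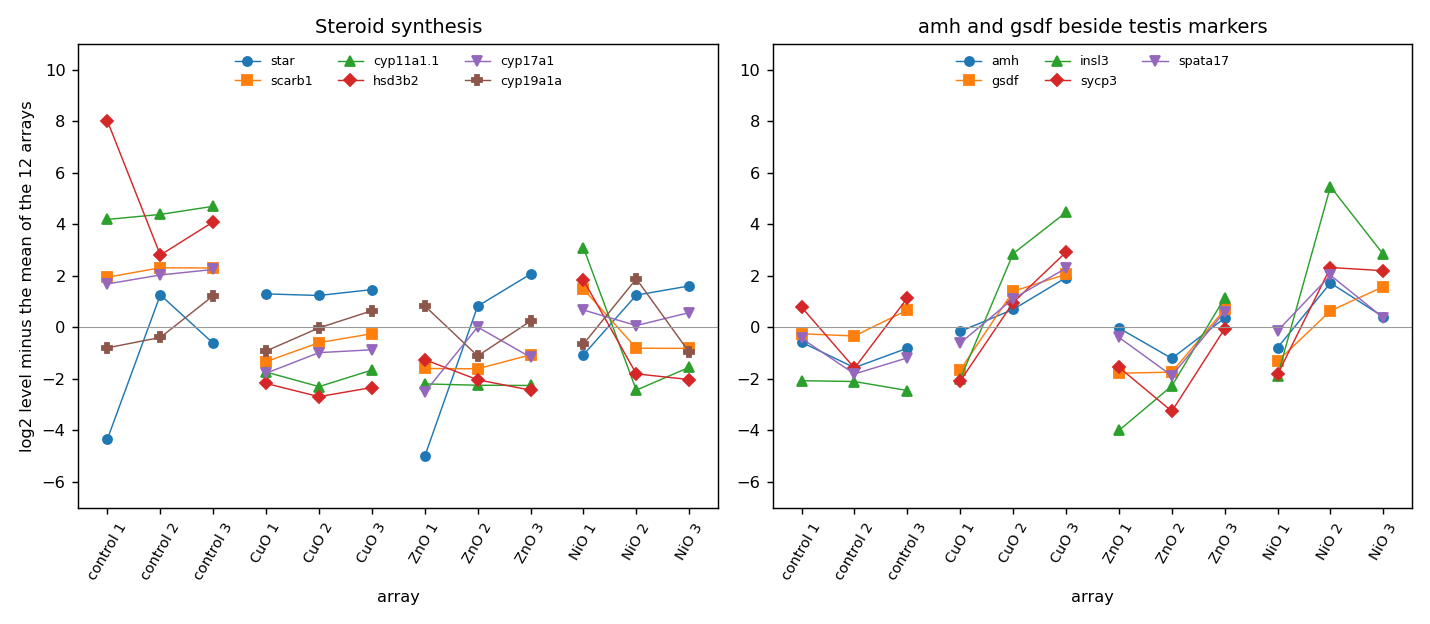
Log2 level of each gene minus its own mean over the 12 arrays (vertical axis) on each array (horizontal axis), for 6 genes of steroid synthesis (left) and for amh and gsdf beside 3 testis markers (right). Lines join the arrays of a group and carry no order. On the left cyp11a1.1, scarb1 and hsd3b2 are high in the controls and the first NiO pool while star and cyp19a1a are not. On the right the genes are above their means in the second and the third CuO and NiO pools. There gsdf and sycp3 are also above their means in the third control, and sycp3 in the first. The markers drawn are insl3 and sycp3, added after their values were seen, and spata17, the gene most like amh. The list genes spata4, cimap1b and igf3, which went another way, are not drawn, so the panel does not stand for the whole list.

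Some other genes of the pathway were high on the same arrays as the oocyte genes. Of 23 steroid synthesis genes tested, 4 rose and 4 fell with CuO, 2 rose and 4 fell with ZnO, and 1 rose and 4 fell with NiO. Beside them, 11.5%, 13.8% and 10.3% of all genes tested were higher and 13.6%, 11.9% and 12% lower. Those that rose were hsd17b1 in all 3 comparisons, srd5a1 with CuO and ZnO, and hsd17b3 and srd5a2b with CuO. The list was thus mixed, with a median difference of 0.05 (CuO), 0.69 (ZnO) and 0.30 (NiO), beside 0.42, 0.32 and 0.27 over all genes tested. When ribosomal protein genes set the scale, the steroid synthesis genes that rose numbered 1, 0 and 1, and those that fell 5, 4 and 5. With 1 array left out the count that rose ran from 0 to 5 with CuO, 0 to 3 with ZnO and 1 to 3 with NiO, and the count that fell from 4 to 5, 4 to 5 and 0 to 5. The side-chain cleavage enzyme cyp11a1.1, which makes the first steroid from cholesterol, read 2.52, 2.71 and 3.02 in the controls and 1.42 in the first NiO pool, against -4.11 to -3.22 in the other 8. It fell by 6.32 with CuO (adjusted p = 0.0039), fell by 6.66 with ZnO (adjusted p = 0.00374) and fell by 4.72 with NiO (adjusted p = 0.0154). Averaged over the probes of cyp11a1.1 the differences were smaller, -4.52 with CuO and -4.45 with ZnO. The dehydrogenase hsd3b2, the next enzyme, was at 1.2, -4.01 and -2.72 in the controls and -4.98 in the first NiO pool. It was not well above background elsewhere, at least 36.6-fold lower with CuO and at least 36.2-fold lower with ZnO (adjusted p = 0.00391 and 0.00575), and its NiO difference was -5.64 (adjusted p = 0.0146) with 2 of 3 NiO arrays not well above background. Like lhcgr, hsd3b2 entered the fit only through the controls, so these differences are descriptions and support nothing further. With normexp they were -3.47, -3.32 and -3.12. As with lhcgr, the second control was the lowest control of hsd3b2, and the genes correlated at r = 0.94 over the 12 arrays. The lipoprotein receptor scarb1, which brings in cholesterol, fell in all 3 comparisons, with differences of -2.91 (CuO), -3.61 (ZnO) and -2.23 (NiO) (adjusted p = 0.00602, 0.00328 and 0.0215). Averaged over its probes the NiO difference was -3.42. The lyase cyp17a1, which makes androgens, fell with CuO (-3.2, adjusted p = 0.00376) and with ZnO (-3.21, adjusted p = 0.00421), and its NiO difference of -1.55 had an adjusted p of 0.0694. That difference passed the test with normexp, ribosomal centring, the mean of probes or array weights (adjusted p = 0.0101 to 0.0452), and without the first ZnO or the second ZnO pool (adjusted p = 0.0235 and 0.0276). The NiO pools of cyp17a1 read 0.35, -0.26 and 0.25, so the first did not stand apart from the third, and the controls read 1.36, 1.71 and 1.92. The NiO calls of cyp11a1.1, hsd3b2 and scarb1 were each lost when 1 of 2 to 4 single arrays was left out, with adjusted p-values up to 0.0776. The levels of star and cyp19a1a, the entry and the last step to estrogen, did not divide the arrays in that way.

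Of 31 follicle growth factors and receptors tested, 8 rose and 6 fell with CuO, 8 rose and 6 fell with ZnO, and 8 rose and 5 fell with NiO, beside 11.5%, 13.8% and 10.3% of all genes higher and 13.6%, 11.9% and 12% lower. On the ribosomal scale 4, 6 and 6 rose and 6, 6 and 5 fell. With 1 array left out the count that rose ran from 1 to 9, 2 to 8 and 2 to 10, and the count that fell from 4 to 6, 4 to 6 and 2 to 5. Those that fell furthest were gdf9 and bmp15, signals that the oocyte itself sends to the granulosa cells and that are also in the oocyte list. The level of gdf9 was 1.45, 1.70 and 1.85 in the controls and 0.17 in the first NiO pool, against -7.10 to -3.69 elsewhere. It fell with CuO (-7.97, adjusted p = 0.00142), with ZnO (-7.32, adjusted p = 0.00211) and with NiO (-4.36, adjusted p = 0.0164), the last call lost without the third control, the second NiO or the third NiO pool (adjusted p up to 0.0611). For bmp15 the differences were -5.80, -7.33 and -5.13 (adjusted p = 0.00368, 0.00204 and 0.00852).

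The counts of the next 2 lists stand beside 11.5%, 13.8% and 10.3% of all genes higher and 13.6%, 11.9% and 12% lower. Of 18 receptors of sex steroids and related hormones, 6 rose and 1 fell with CuO, 3 rose and 1 fell with ZnO, and 6 rose and 1 fell with NiO. The one that fell in all 3 was paqr5a, a membrane progestin receptor, with differences of -4.11, -4.89 and -3.35 (adjusted p = 0.00193, 0.00173 and 0.0064). When the ribosomal protein genes set the scale, the receptors that rose numbered 2, 1 and 1, and the 1 that fell remained 1 in each comparison. Without the first NiO pool 2 receptors rose with NiO, and over all single arrays left out the count that rose ran from 3 to 7 (CuO), 1 to 3 (ZnO) and 1 to 7 (NiO). Of 23 gonad transcription factors, 3 rose and 1 fell with CuO, 2 rose and 2 fell with ZnO, and 2 rose and 1 fell with NiO. On the ribosomal scale 1 rose with CuO, and with 1 array left out the count that rose ran from 1 to 4, 0 to 3 and 1 to 3, and the count that fell from 0 to 1, 1 to 4 and 0 to 1. The GATA cofactor zfpm2b fell in all 3, to levels at least 4.10-fold lower with CuO and at least 4.13-fold lower with ZnO (adjusted p = 0.0164 and 0.0079), and by 2.87 with NiO (adjusted p = 0.0249). Its CuO call was lost without the first control, the second CuO or the third CuO pool, and its NiO call without any of 4 arrays, with adjusted p-values up to 0.0849. It too entered the fit only through the controls, and with normexp its differences were -0.75 (CuO, adjusted p = 0.0559), -0.81 (ZnO, adjusted p = 0.0433) and -0.83 (NiO, adjusted p = 0.0419).

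Among 3 subunits of the pituitary hormones that fshr and lhcgr read, fshb, the beta subunit of follicle-stimulating hormone, passed the test with ZnO, at least 2.24-fold lower (adjusted p = 0.00878), and no subunit passed the test with CuO or NiO. It also entered the fit only through the controls. With normexp the ZnO call of fshb was lost (-0.46, adjusted p = 0.226), and with the mean of its probes fshb passed the test with NiO (-2.28, adjusted p = 0.0288). The median difference of the 3 subunits was 1.92 with CuO, 2.505 with ZnO and 1.01 with NiO, while fshb differed by -1.25, -3.37 and -1.66. The subunits other than fshb were thus higher by at least the median, without a call. The subunits called higher numbered 0 to 2 (CuO), 0 to 1 (ZnO) and 0 (NiO) with 1 array left out, and 1 stayed lower with ZnO. Over all genes tested 11.5%, 13.8% and 10.3% were higher and 13.6%, 11.9% and 12% lower with CuO, ZnO and NiO. The gene igf3, which fell in all 3 comparisons, is counted both among the growth factors above and among the testis markers. Of the 14 testis markers 2 rose and 2 fell with CuO, 3 fell with ZnO, and 2 rose and 1 fell with NiO. The largest called difference in that list was that of cimap1b, a sperm tail and cilium protein, -4.94 with ZnO (adjusted p = 0.0282), a call lost when any of 4 arrays was left out (adjusted p up to 0.0986) or array weights were used (-3.36, adjusted p = 0.118). With 1 array left out the testis markers that rose numbered 1 to 3 with CuO and 0 to 2 with NiO, and those that fell 0 to 2, 1 to 4 and 0 to 1. In the oocyte list 39, 41 and 38 of 44 fell with CuO, ZnO and NiO and none rose. Of 5 yolk precursor genes, made by the liver under estrogen, 4 fell in each comparison, and their median was -3.99 in the first NiO pool against 1.05 to 4.03 in the controls. The yolk genes thus parted from the oocyte genes and from lhcgr in the first NiO pool. The lists were drawn up with earlier results of these data known, so their direction is not independent evidence.

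**Figure D5:**
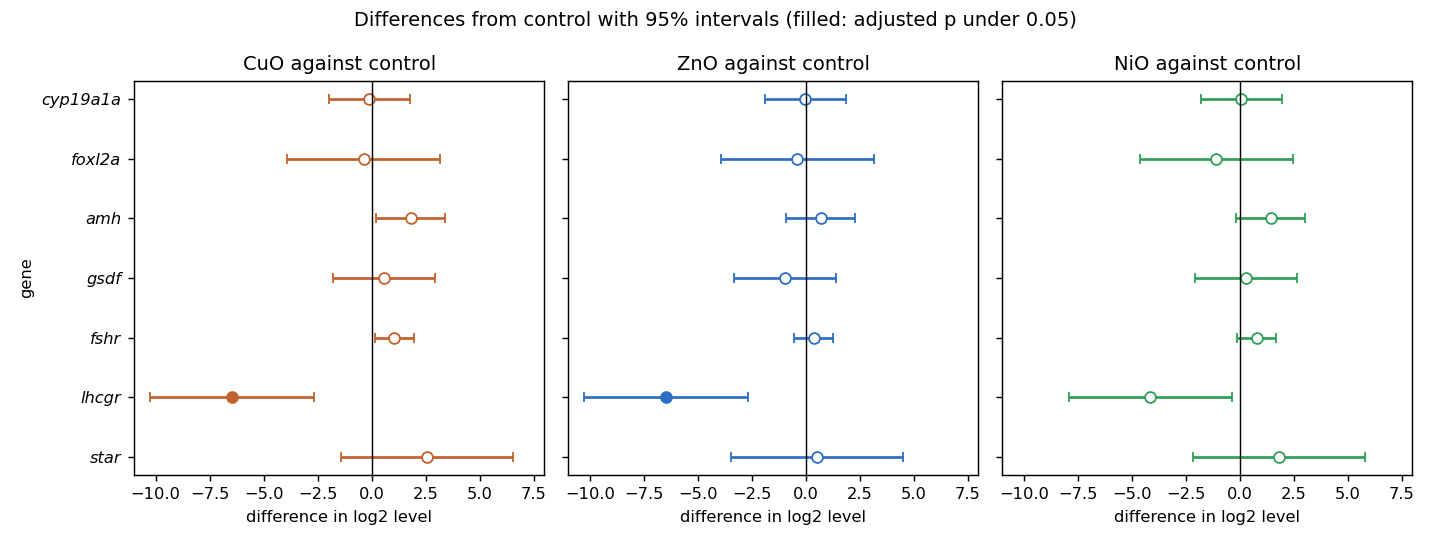
Differences in log2 level from control (horizontal axis) for the 7 genes with CuO, ZnO and NiO, with 95% intervals from limma's fit, filled where the adjusted p was under 0.05. The filled points are those of lhcgr with CuO and ZnO, where the exposed groups were at background. Those points are the fitted differences, which rest on background signal, and the bounds given in the text are not drawn.

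Set side by side, 2 of the 21 differences between a member and its controls passed the test, and 5 of 21 had an unadjusted p under 0.05. Over all 12616 genes tested, 25.1%, 25.8% and 22.3% were called with CuO, ZnO and NiO. An unadjusted p under 0.05 was reached by 5082, 4968 and 4626 of them. The median difference of the 7 members was 0.58 with CuO, -0.02 with ZnO and 0.27 with NiO, beside 0.42, 0.32 and 0.27 over all genes tested. The 3 comparisons share their controls. The shift of all genes was 0.11, 0.02 and 0.08 after centring on ribosomal protein genes. That centring also moved the split of all calls, from 1449 higher and 1721 lower to 588 and 1916 with CuO, from 1747 and 1503 to 725 and 1581 with ZnO, and from 1294 and 1517 to 794 and 1501 with NiO.

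The genes most like each member over the 12 arrays, by Pearson r among all genes tested, differed from member to member. Those of lhcgr were trim35-29 (0.96), fkbp1ab (0.95), jhy (0.95), hsd3b2 (0.94) and rdh5 (0.94). For amh they were spata17 (0.96), pimr136 (0.94), ccdc40 (0.93, but 0.60 with the probes of each gene averaged), ccdc146 (0.92) and mapk15 (0.92). For gsdf they were oc90 (0.99), pimr110 (0.93), cdk20 (0.93), dnaaf4 (0.92) and pimr109 (0.91). The foxl2a pattern was nearest to rasd4 (0.95), msx1a (0.94), thap7 (0.93), olfm2a (0.92) and slc1a7a (0.92). When the probes of each gene were averaged, thap7 fell to 0.16 and olfm2a to 0.71. Nearest to star were g6pc1a.2 (0.94), a subunit of glucose-6-phosphatase, f9b (0.93), a clotting factor, ms4a17a.16 (0.93), cldn3d (0.92) and gja12.1 (0.92). The gene g6pc1a.2 was at -3.26 in the first control and -4.38 in the first ZnO pool, its lowest levels as well. For cyp19a1a the list held ndufa5 (0.92), rps23 (0.91), ndufs5 (0.90), rab22a (0.89) and aimp2 (0.87). By the mean of the probes rab22a fell to 0.65 and aimp2 to 0.69. For fshr the list held zfand4 (0.89), taf1 (0.88), atp2b1a (0.87), dicer1 (0.86) and fam102bb (0.86), and all 5 dropped to 0.61 or less by the mean of the probes. As the highest values picked from a large set of genes, they are high by selection.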

How the data were processed

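Gill RNA of 12 pools was labelled with cyanine 3 and scanned on one-colour arrays. Intensity values were taken from the deposited scanner files, in which Agilent Feature Extraction 11.5.1.1 had subtracted the background to give the processed signal, per the file headers. The submitters' processing notes also name MAS5, with no role given. Probes were named by RefSeq accession through NCBI's gene table: 26094 of 43603 probes had a name, 12 of them for the 7 members, of which 11 were tested. The array annotation is of danRer7, so no coordinates are given.

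Log2 of the processed signal minus each array's 75th percentile was fitted with limma 3.58.1 in R 4.3.3, as 4 group means over all 12 arrays, with Benjamini-Hochberg adjustment within a comparison at 0.05 (limma's adjusted p in the text). Control spots and flagged outliers were left out. A probe was tested if well above background (the scanner's flag) on all 3 arrays of a group, and a gene was read from its tested probe of highest mean signal. A gene at background in a group is given as a bound, the bright group's mean against the lowest signal well above background. Such a bound makes no allowance for the spread between pools, so it is not a lower confidence limit. The step was tested on simulated data of 12616 genes, for CuO against control. There 85 of 100 genes changed by 4 log2 units and 48 of 100 changed by 2 were recovered, with 12 false calls. Only those genes were changed, in noise independent between genes, while in the data 22.3% to 25.8% of genes were called. The recovery and the false calls thus need not hold for the data. Members, lists and tests were chosen with earlier results of these data known. Genes named outside the members are the called ones with the largest difference (4 for steroid synthesis, 2 for growth factors, 1 for other lists), the 5 most alike, and insl3, cyp11c1, sycp3, spata4, igf3, tekt1, spag6, foxi3b, gh1, prl and g6pc1a.2, added after their values were seen. The steroid synthesis genes that rose, hsd17b1, srd5a1, hsd17b3 and srd5a2b, were also named after their calls were seen.

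A deposited series table was used only as an alternative: 10 of its 12 columns, set against the scanner files, hold the array of another sample than their label, and its values are the processed intensity signals within 0.1%, unscaled and uncentred (column medians 145 to 583). The normexp alternative used the median foreground signal, as the mean was not in the columns used here. Others were quantile, ribosomal and detected-probe scaling, no filter, mean of probes, array weights, blocks and leaving out each array. The number of arrays limits the precision.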

Additional observations from a re-analysis of the deposited data

Results flagged for a closer look

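The lhcgr probe that stayed outside the fit lay above its control levels on all 6 ZnO and NiO arrays, and was well above background on 2 of them. It was well above background in the first ZnO pool, at a log2 level of -7.0, and in the first NiO pool, at -5.59, while the other ZnO pools were at -7.37 and -7.83, the other NiO pools at -8.51 and -7.92, and the 3 controls lay between -9.48 and -9.13, none of these well above background. The lhcgr probe used for the gene was at -9.47 in the first ZnO pool and at -2.97 in the first NiO pool. The cause of the disagreement was not tested.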

How the results depend on the processing

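Of 462 recomputed member differences over 22 alternative settings, 414 kept direction and side of the threshold. A further 8 lost the call with the sign kept, 4 gained it and 36 changed sign, and the cause was not tested. Among the last, lhcgr with CuO and with ZnO by the series table also lost its call. Leaving out an array of another exposed group, a block or no filter left each member's difference unchanged, so only the call could move. The replicate and slide blocks were the same fit. The 414 is thus no measure of robustness. With the deposited series table as labelled, 0 genes were called in each comparison and 0 members, with amh at -0.27, fshr -0.53, foxl2a 0.34, lhcgr 0.0486, cyp11a1.1 1.67, scarb1 1.43, cyp17a1 1.48, zfpm2b 0.0405, gdf9 2.3, bmp15 1.70, paqr5a 1.31, fshb 0.72 and cimap1b 2.42 for CuO. For ZnO it gave cyp19a1a 0.99, gsdf 1.12, fshr -0.22, lhcgr 0.0493, scarb1 0.32, cyp17a1 1.68, gdf9 1.44, paqr5a 0.0812, fshb 1.01 and cimap1b 1.00, and for NiO fshr -0.16, cyp17a1 0.42 and cimap1b 2.58. Array weights called 6132 genes and 2 members with CuO (amh, 1.49, adjusted p = 0.0387, and lhcgr), and gave foxl2a 0.83 for CuO and cyp19a1a -0.88, foxl2a 0.29 and gsdf -0.10 for NiO. The mean of a gene's probes gave cyp19a1a 0.21 (CuO) and 0.29 (ZnO) and fshr -0.28 (ZnO). Normexp gave cyp19a1a 0.11 (CuO) and 0.24 (ZnO) and foxl2a 0.22 (CuO), quantile scaling cyp19a1a 0.20 (ZnO) and ribosomal centring cyp19a1a -0.11 (NiO). Leaving out 1 array at a time, the genes called ran from 1843 to 3434 (CuO), 1544 to 3508 (ZnO) and 925 to 2904 (NiO), and the members called from 0 to 1 in each. Over the same runs cyp19a1a ranged from -0.51 to 0.50, -0.45 to 0.58 and -0.82 to 0.68, foxl2a from -1.45 to 1.26, -0.75 to 0.16 and -2.05 to 0.75 (CuO, ZnO, NiO), gsdf from -0.15 to 1.70 (CuO) and -0.36 to 1.08 (NiO), star from -1.03 to 2.67 (ZnO) and insl3 from -0.93 to 1.65 (ZnO). Replicate numbers are the slides. Same-numbered arrays deviated together in 7 of 18 pairs (r over 0.1, range -0.58 to 0.48), so the numbers were not taken to pair the pools. With the replicate block, 2982, 2946 and 2564 genes were called with CuO, ZnO and NiO, and lhcgr gave adjusted p-values of 0.0204 (CuO), 0.0215 (ZnO) and 0.0918 (NiO), with no member's call changed. In the simulated data, with 3 arrays a group, differences of 2 log2 units were often missed. On some of the real arrays foxl2a and lhcgr were not well above background.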
